A study of Mus musculus with 2 samples.

Results

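Isl1 and Etv1 are 2 of the 16943 nuclear genes with a row in at least 1 of the 2 read count tables of this experiment, and they were taken by their symbols. Isl1 lies on chromosome 13 and Etv1 on chromosome 12. Both were described in single cells sorted as Ngn3-RFP-positive from organoids, self-renewing epithelial cultures, of mouse jejunum and ileum with the genotype Neurog3-RFP hom. The Neurog3 (Ngn3) protein switches on the programme of enteroendocrine cells, and a red fluorescent reporter (RFP) at this gene marks its recent use. A plate of 384 wells held cells from organoids given ISX-9, an isoxazole that drives neuronal differentiation, for 48 h, and the other plate held cells from organoids given the solvent DMSO for 48 h. Both plates carry the same reporter genotype, and the labels give no number of animals or organoid lines for a plate. Each treatment has 1 plate, so treatment and plate cannot be told apart, no test between them was made, and no difference below has a replicate check.

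Isl1 encodes a LIM homeodomain transcription factor that endocrine cells of gut and pancreas use on the way to peptide hormone expression. In the mouse intestine its loss is known to deplete several peptide hormone cell types. Etv1 (ER81) encodes an ETS family transcription factor of the PEA3 group, whose activity depends on ERK signalling. Among gut endocrine cells, peptidergic cells make hormones such as glucagon-like peptides (Gcg), cholecystokinin (Cck), peptide YY (Pyy) and ghrelin (Ghrl), while enterochromaffin cells make serotonin with the enzyme tryptophan hydroxylase 1 (Tph1).

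The windows just upstream of the start sites of both genes, and of the 3 hormone genes whose wells held most of their reads in DMSO, are shown because the levels below are set against each other. Each is the 250 bases before the RefSeq start in build GRCm38.p6, written 5′ to 3′ on the gene's strand. The coordinates are chr13:116309689-116309938, minus strand, for Isl1, chr12:38779832-38780081, plus strand, for Etv1, chr6:113717693-113717942, minus strand, for Ghrl, chr2:62483654-62483903, minus strand, for Gcg, and chr9:121495695-121495944, minus strand, for Cck. Capitals mark every TAAT or ATTA, the core that homeodomain proteins share, and every GGAA or TTCC, the core that ETS proteins share.
Isl1: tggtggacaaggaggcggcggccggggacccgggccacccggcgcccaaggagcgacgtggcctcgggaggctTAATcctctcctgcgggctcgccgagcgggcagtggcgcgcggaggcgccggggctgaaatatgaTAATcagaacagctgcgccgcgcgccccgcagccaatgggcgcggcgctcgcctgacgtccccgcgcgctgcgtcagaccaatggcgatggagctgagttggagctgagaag
Etv1: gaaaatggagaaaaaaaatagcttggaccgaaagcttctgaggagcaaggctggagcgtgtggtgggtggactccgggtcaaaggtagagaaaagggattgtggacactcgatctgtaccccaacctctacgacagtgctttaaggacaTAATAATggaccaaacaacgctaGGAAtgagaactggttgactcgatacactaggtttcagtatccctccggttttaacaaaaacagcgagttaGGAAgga
Ghrl: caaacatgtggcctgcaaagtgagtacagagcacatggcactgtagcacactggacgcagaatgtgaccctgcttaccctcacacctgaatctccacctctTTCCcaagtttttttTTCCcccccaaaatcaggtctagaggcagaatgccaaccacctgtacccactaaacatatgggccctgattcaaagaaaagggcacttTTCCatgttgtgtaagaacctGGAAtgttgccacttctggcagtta
Gcg: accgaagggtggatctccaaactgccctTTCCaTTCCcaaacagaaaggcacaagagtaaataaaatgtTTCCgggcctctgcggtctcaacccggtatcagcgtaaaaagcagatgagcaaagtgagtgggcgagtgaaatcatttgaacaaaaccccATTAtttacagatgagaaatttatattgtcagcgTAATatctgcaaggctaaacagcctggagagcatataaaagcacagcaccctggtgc
Cck: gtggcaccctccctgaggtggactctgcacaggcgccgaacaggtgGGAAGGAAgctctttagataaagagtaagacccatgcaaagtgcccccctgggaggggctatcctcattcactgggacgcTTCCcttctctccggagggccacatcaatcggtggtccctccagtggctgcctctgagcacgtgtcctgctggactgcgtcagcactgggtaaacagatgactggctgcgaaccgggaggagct
The homeodomain core stood 2 times in the windows of Isl1, Etv1 and Gcg, where the pair in Etv1 shares a base, and 0 times in those of Ghrl and Cck. The ETS core stood 0 times in the Isl1 window, 2 times in Etv1, 4 times in Ghrl and 3 times each in Gcg and Cck. Such short cores are common: 54.8% of 32536 mouse windows of this length hold the first and 93.4% hold the second, with medians of 1 and 3 matches. A match is a description of letters and no evidence of binding.

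After the removal of spike-in and mitochondrial reads, wells with at least 2000 reads and 500 genes were kept, which left 290 ISX-9 wells and 300 DMSO wells. The kept wells held 11801859 ISX-9 reads and 14754827 DMSO reads, with medians of 22509.5 and 26340 reads per well. Levels are given as CPM, the reads of a gene relative to all reads of its wells. The values are reads and not molecules, and their 95% intervals, exact Poisson for CPM and Clopper-Pearson for shares of wells, cover counting error only. Both plates use the same 384 well barcodes. At the barcodes of the 3 ISX-9 wells with 10 or more Isl1 reads, the DMSO plate had 7 Isl1 reads in 1 well, and at those of the 18 such DMSO wells, which held 1822 reads, the ISX-9 plate had 0. For Etv1, the barcodes of the 19 ISX-9 wells with 10 or more reads had 87 reads in 4 DMSO wells, and those of the 19 such DMSO wells had 41 reads in 5 ISX-9 wells. For Ghrl, the barcodes of 6 such ISX-9 wells had 31 reads in 3 DMSO wells, and those of 15 such DMSO wells had 407 reads in 2 ISX-9 wells. A setting added after the values were seen left out the barcodes with a read in both plates, 1 for Isl1 and 11 for Etv1, and gave log2 ratios of ISX-9 over DMSO of -3.52 for Isl1 and -0.49 for Etv1, beside -3.42 and -0.51 with all kept wells.

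Isl1 was far lower in the ISX-9 plate. It had 88 reads, 7.46 CPM (5.98 to 9.19), in ISX-9 cells, against 1892 reads, 128.2 CPM (122.5 to 134.1), in DMSO cells. After 5 CPM was added to both levels, ISX-9 over DMSO gave a log2 ratio of -3.42, and without that addition the level in DMSO was 17.2-fold that in ISX-9 (13.9 to 21.5). The wells with an Isl1 read numbered 7, 2.41% (0.976 to 4.91), in the ISX-9 plate and 42, 14% (10.3 to 18.4), in the DMSO plate. With every well thinned to 2000 reads, 2 ISX-9 wells and 19 DMSO wells kept a read. This difference was past the 2-fold line used here, as was that of 1.19% of the 9106 genes averaging at least 10 CPM over both plates, while 4.51% lay past it in the other direction. Of all genes past 2-fold, 79.2% were higher in ISX-9; with median-of-ratios or spike-in scaling this was 65.0% or 61.04%, and Isl1 stayed more than 2-fold lower. With the wells thinned, the Isl1 ratio was -2.49. Isl1 had the seventh lowest ratio of these genes.

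Etv1 stayed within 2-fold between the plates. It had 806 reads, 68.3 CPM (63.7 to 73.2), in ISX-9 cells, against 1465 reads, 99.3 CPM (94.3 to 104.5), in DMSO cells, a log2 ratio of -0.51. The median log2 ratio of the 9106 genes was 0.15. Etv1 had a read in 52 ISX-9 wells, 17.9% (13.7 to 22.8), and in 50 DMSO wells, 16.7% (12.6 to 21.4), and the intervals of the shares overlap. At 2000 reads per well, 16 ISX-9 wells, 5.52%, and 26 DMSO wells, 8.67%, kept an Etv1 read. Fewer cells with a transcript and fewer transcripts per cell both lower a plate's sum. The wells with a read and the level in them are therefore given next.

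Among the 7 ISX-9 wells with Isl1, the level was 15.8 CPM in the lowest, 186.9 in the median and 2342 in the highest well, against 2.04, 408.7 and 6147 CPM in the 42 DMSO wells. These ranges overlap, and the ISX-9 plate had few such wells: 3 ISX-9 wells and 18 DMSO wells had 10 or more Isl1 reads. A single well held 60.2% of the Isl1 reads of the ISX-9 plate, and the highest well of the DMSO plate held 21.3%. Etv1 was spread over more wells. Its positive wells had 7.63, 192.8 and 5481 CPM (lowest, median, highest) in ISX-9 and 8.97, 154.2 and 3568 CPM in DMSO, with 19 wells of 10 or more reads in each plate and 18.2% and 17.7% of the reads in the highest well.

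**Figure D1:**
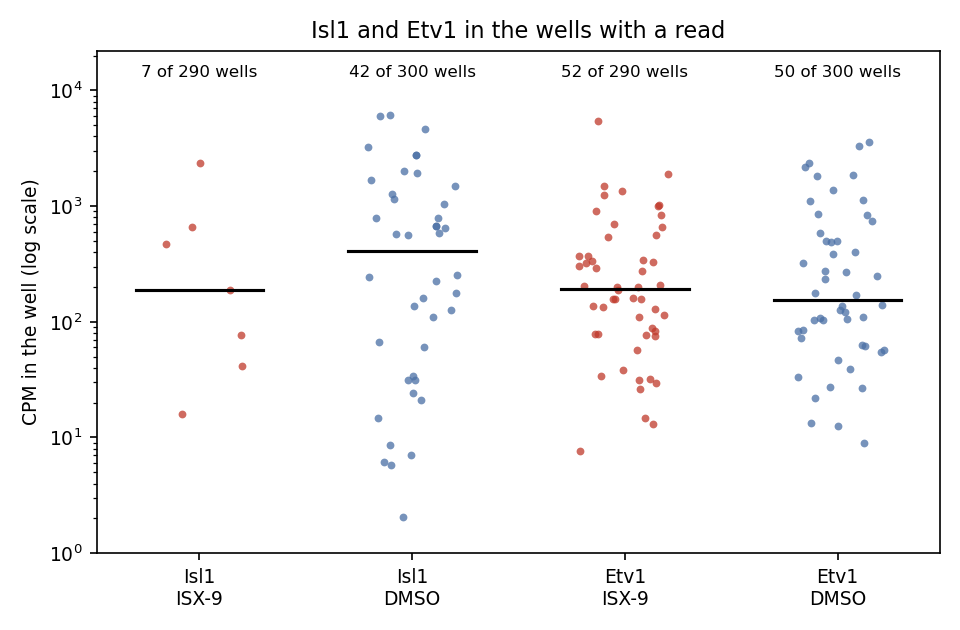
Each point is 1 kept well with at least 1 read of Isl1 or Etv1, with its level in CPM on a log scale, and the bar is the median of these wells. Isl1 has 7 points in the ISX-9 plate and 42 in the DMSO plate, while Etv1 has 52 and 50.

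To place both genes among cell states without using them, the wells were put into 6 disjoint sets by other genes. A well was high for a gene at 10 or more reads and 1000 or more CPM. Peptide wells were high for Gcg, Cck, Pyy, Ghrl, Gip or Nts but not Tph1, Tph1 wells the reverse, and wells high for both formed a set of their own. Of the remaining wells, those high for Neurog3 formed the Neurog3 set, and those with at least 5000 CPM of the goblet mucin Muc2 or 20000 CPM of the Paneth lysozyme Lyz1 formed the secretory set. The sets are defined by thresholds on sequenced reads and are no cell types. Their wells numbered 37 ISX-9 and 32 DMSO wells (peptide), 22 and 15 (peptide and Tph1), 31 and 41 (Tph1), 68 and 26 (Neurog3), 15 and 31 (secretory), and the rest (other), 40.3% and 51.7% of kept wells.

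Most Isl1 reads of the DMSO plate lay in peptide wells, which held 90.9% of them. Deep wells weigh most in this share of reads. Counted as wells, 20 of the 42 DMSO wells with an Isl1 read were peptide wells, and 15 of the 18 with 10 or more reads. The highest Isl1 levels per well in DMSO, 6147 and 5946 CPM, lay in a well of the other set and a Neurog3 well. Isl1 stood at 18.2 CPM (12 to 26.5) in the ISX-9 peptide wells, with a read in 4 of 37, against 926.5 CPM (883.2 to 971.3) in the DMSO peptide wells, with a read in 20 of 32. The log2 ratio within this set was -5.33, a larger difference than over all wells; it was -4.24 with a threshold of 5000 CPM, -4.71 without the 5% of wells with most reads and -4.63 with thinned wells. In Tph1 wells Isl1 was as low as in secretory wells, with 0 reads in 31 ISX-9 wells and 2 reads in 41 DMSO wells, 1.11 CPM. The secretory wells, which give the level of stray reads, had 0 Isl1 reads in ISX-9 and 1 read in DMSO, 0.653 CPM. Their median depths were 8695 reads in ISX-9 and 29467 reads in DMSO, against 32012 and 40934.5 reads in the peptide wells.

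Beside this, the make-up of the peptide wells differed between the plates. The summed level of the 10 peptidergic markers was 18224 CPM in ISX-9 and 44163 CPM in DMSO peptide wells, with Gip at 0 in ISX-9. The 7 progenitor markers summed to 9730 and 2768 CPM there, the 9 enterochromaffin markers to 29024 and 14811 CPM, the 7 goblet markers to 1108 and 1654 CPM, and the 6 Paneth markers to 854 and 3507 CPM. The part of this make-up in the Isl1 difference was not tested. Over all kept wells, 55 ISX-9 and 39 DMSO wells were high for Cck, 5 and 14 for Ghrl, 5 and 10 for Gcg, and 0 and 4 for Gip.

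Outside the peptide wells Isl1 was low as a sum, and a few wells held most of its reads. The Neurog3 set had 21.2 CPM (15.9 to 27.6) in ISX-9, where 1 well held 53 of the 54 reads, and 33.8 CPM (23.6 to 46.7) in DMSO, where 24 of 36 reads came from 1 well. Neurog3 stood at 8439 CPM in this ISX-9 well and at 3964 CPM in this DMSO well. The other set had 0 Isl1 reads in ISX-9, where the interval reached 0.650 CPM and 3 counts would be 0.528 CPM. In DMSO this set had 17.1 CPM (14.3 to 20.3), and 13 wells had a read. In DMSO, 2 of these wells held 97 of the reads. One, with 50 Isl1 reads of 8134 in all, had 6147 CPM, the highest of any well, and the other, with 47 Isl1 reads of 14533, had 3234 CPM. A further 2 DMSO wells of the set, with 9 Isl1 reads each, had 1940 and 1141 CPM. Without the 2 highest wells the DMSO level of the set was 4.55 CPM.

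Etv1 was more widely placed. In the peptide wells it stood at 252.2 CPM (227.3 to 279.1) in ISX-9, with a read in 8 of 37, and at 672.8 CPM (636.0 to 711.2) in DMSO, with a read in 18 of 32, a log2 ratio of -1.40. These wells held 46.4% of the Etv1 reads of the ISX-9 plate and 85.3% of those of the DMSO plate. With a threshold of 5000 CPM for a high well the ratio in the peptide wells was -0.71, which is within 2-fold, and with thinned wells it was -2.08.

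In the Tph1 wells the order was turned round. Etv1 had 119.03 CPM (97.7 to 143.6) in ISX-9, with a read in 15 of 31 wells, and 28.7 CPM (21.5 to 37.7) in DMSO, with a read in 8 of 41 wells, a log2 ratio of 1.88. In the wells high for both peptide hormones and Tph1 it had 96.1 CPM in 6 of 22 ISX-9 wells and 27.1 CPM in 2 of 15 DMSO wells. The Tph1 result rests on few wells and moves with the settings: 1 well held 73.1% of the Etv1 reads of the DMSO set and 1 well 26.6% of those of the ISX-9 set, the ratio was 0.30 with wells thinned to 2000 reads, where 1 well of each plate kept a read, and it was -1.36 with the threshold at 5000 CPM. Without the 5% of wells with most reads it was 3.30. In the Neurog3 set Etv1 was low, with 7.45 CPM in ISX-9 and 15.9 CPM in DMSO. Secretory wells held 0 Etv1 reads in ISX-9 and 1 in DMSO.

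The other set was also higher in ISX-9, with 38.9 CPM of Etv1 (33.96 to 44.4), with a read in 15 wells, against 16.2 CPM (13.5 to 19.3), with a read in 17 wells, in DMSO, a log2 ratio of 1.05. It held 27.4% of the Etv1 reads of the ISX-9 plate and 8.53% of those of the DMSO plate. Under settings added for this set after its values were seen, the ratio was 1.27 at 5000 CPM, 1.56 without the 5% of wells with most reads and 0.91, within 2-fold, when thinned. The highest Etv1 well of the ISX-9 plate, at 5481 CPM, lay here with 11 Etv1 reads of only 2007 reads. Without the 2 wells of each plate with most Etv1 reads, the levels of the set were 25.3 CPM in ISX-9 and 7.04 CPM in DMSO.

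**Figure D2:**
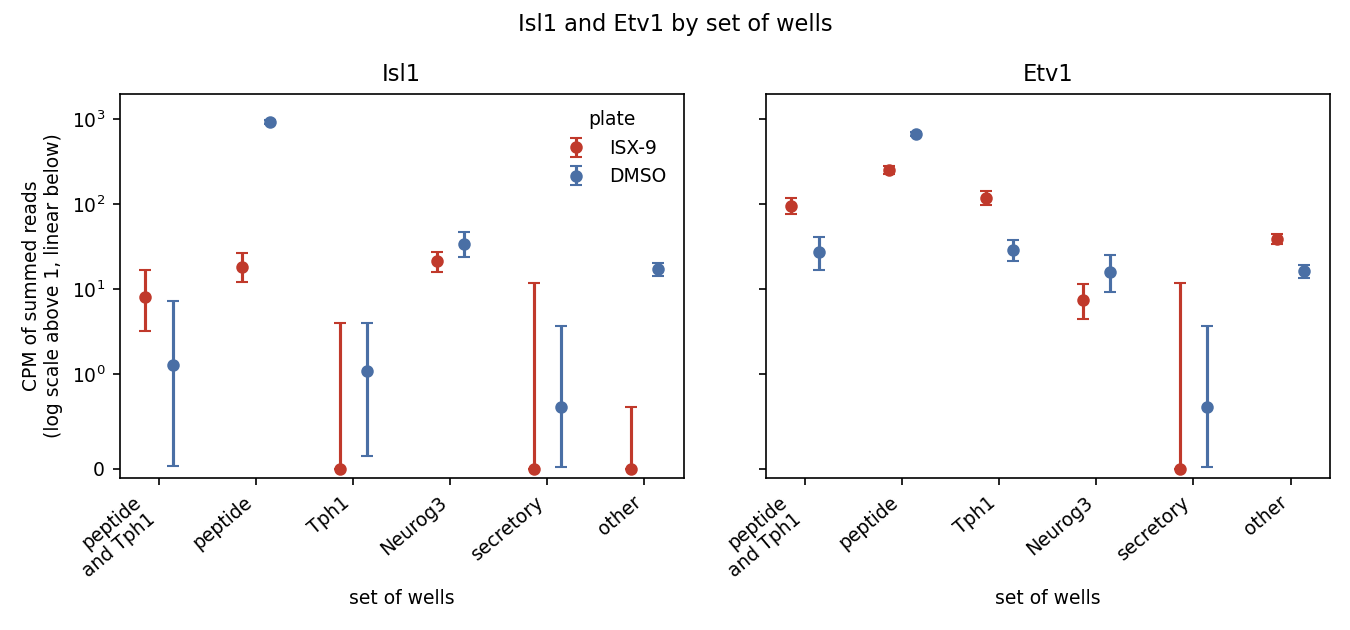
Level of Isl1 and Etv1 in CPM of the reads summed over each set of wells (log scale above 1, linear below), with 95% Poisson intervals that cover counting error only. Isl1 in peptide wells is at 18.2 CPM in ISX-9 and 926.5 CPM in DMSO, and Etv1 is higher in DMSO there but higher in ISX-9 in the Tph1 and other wells at these thresholds.

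In DMSO, wells high for ghrelin held most Isl1 reads. Of wells high for Ghrl, 2 of 5 in ISX-9 and 12 of 14 in DMSO had an Isl1 read, with 90.7 CPM (46.9 to 158.5) in ISX-9 and 1244 CPM (1183 to 1307) in DMSO. The share of the plate's Isl1 reads in these wells was 13.6% in ISX-9 and 82.3% in DMSO. Deep wells weigh most in such a share. In DMSO, 3 Ghrl-high wells with 121601, 165284 and 268887 reads in all held 56.7% of the plate's Isl1 reads. The highest Isl1 levels per well in DMSO, 6147 and 5946 CPM, lay in wells that were not Ghrl-high. Well by well, the 5 ISX-9 wells had 0, 0, 0, 15.8 and 186.9 CPM of Isl1, against 0, 629.8 and 2763 CPM (lowest, median, highest) in the 14 DMSO wells. The 3 ISX-9 wells at 0 had 3002, 3098 and 4109 reads in all, so depth limits what a count of 0 shows there. Of the 2 deeper ISX-9 wells, the one with 63185 reads had 1424 CPM of Ghrl and a single Isl1 read, and the one with 58846 reads had 6882 CPM of Ghrl and 11 Isl1 reads. In DMSO the 2 Ghrl-high wells without Isl1 had much Etv1, at 1870 and 3568 CPM. Etv1 had a read in 1 of 5 Ghrl-high wells in ISX-9 and in 13 of 14 in DMSO. The Ghrl-high wells held 5.09% of the Etv1 reads of the ISX-9 plate and 65.7% of those of the DMSO plate. In DMSO they thus held most reads of both genes, not of Isl1 alone.

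Many wells were high for several hormones, so each was also assigned to its leading hormone gene, the one with the highest CPM among Tph1 and the 6 peptide genes it was high for, a grouping chosen after the values were seen. The 7 DMSO wells led by Ghrl all had Isl1, with 1370 CPM (1283 to 1460) over the set, against 14.2 CPM (0.360 to 79.3) in the 3 ISX-9 wells led by Ghrl. Of these DMSO wells, 4 were also high for Neurog3, with between 1388 and 6361 CPM. Wells led by Cck had 20.2 CPM of Isl1 (13.9 to 28.4, 39 wells) in ISX-9 and 209.2 CPM (174.7 to 248.6, 17 wells) in DMSO. Among Cck-led wells with over 20000 CPM of Cck, Isl1 had 0, 76.9, 186.9, 467.2 and 657.7 CPM in ISX-9. The DMSO wells of this kind had 0, 253.5 and 666.6 CPM, and the ranges overlap. The part of the Cck level in the difference between Cck-led wells was not tested. Gip, the gene of glucose-dependent insulinotropic peptide, had 4 high wells in DMSO, all with Isl1, and 0 in ISX-9.

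Etv1 levels in the glucagon wells of both plates had overlapping intervals. In Gcg-high wells it had 1196 CPM (1049 to 1358) in ISX-9, with a read in 4 of 5, and 1025 CPM (960.0 to 1094) in DMSO, with a read in 8 of 10. Wells led by Gcg gave 1468 CPM (3 wells) and 1376 CPM (8 wells). In these led wells Isl1 had 0 reads in ISX-9, where the interval reached 23.3 CPM, and 991.8 CPM in DMSO, where 5 of 8 wells had it. Over the Gcg-high wells, Isl1 had a read in 2 of 5 in ISX-9, at 45.2 CPM (20.7 to 85.8). In DMSO it had a read in 7 of 10, at 1148 CPM (1079 to 1221). The Etv1 range over the Gcg-high wells ran from 0 to 1891 CPM in ISX-9 and from 0 to 3568 CPM in DMSO, and the groups overlap.

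Etv1 was found in all Pyy-high wells, 2 in ISX-9 and 5 in DMSO, at 1214 and 1890 CPM, and Isl1 in 1 and 4 of them. Cck-high wells, the most numerous kind, had Etv1 in 14 of 55 wells of the ISX-9 plate and 15 of 39 of the DMSO plate, at 201.3 CPM (183.2 to 220.6) and 610.6 CPM (575.9 to 646.7), and Isl1 in 4 and 14 of them. At 5000 CPM for a Cck-high well, Etv1 was found in 50% of such wells in ISX-9 and 73.3% in DMSO, against 25.5% and 38.5% at 1000 CPM. Nts, the neurotensin gene, was itself higher in ISX-9 at 278.3 CPM against 20.5 CPM in DMSO, and of its high wells 4 of 5 in ISX-9 and the only 1 in DMSO had Etv1. Sct-high wells, those of secretin, had Etv1 in 5 of 8 ISX-9 wells and in the single DMSO well.

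Tph1-high wells nearly lacked Isl1, found in 1 of 53 such wells after ISX-9 and 3 of 56 after DMSO. Etv1 was found in 21 of these ISX-9 wells, 39.6% (26.5 to 54), and in 10 of these DMSO wells, 17.9% (8.91 to 30.4). This order depends on the threshold: at 5000 CPM of Tph1 the shares were 14.3% in ISX-9 and 23.8% in DMSO. Among Muc2-high wells, taken as background, 0 of 41 in ISX-9 and 2 of 76 in DMSO had Isl1, and 0 of 41 and 3 of 76 had Etv1. The shares in DMSO wells high for Gcg, Cck, Pyy, Ghrl or Gip thus stood above this level for both genes. So did that of Etv1 in Tph1-high ISX-9 wells at 1000 CPM. The single DMSO well high for Nts and the single one high for Sct had 0 Isl1 reads.

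**Figure D3:**
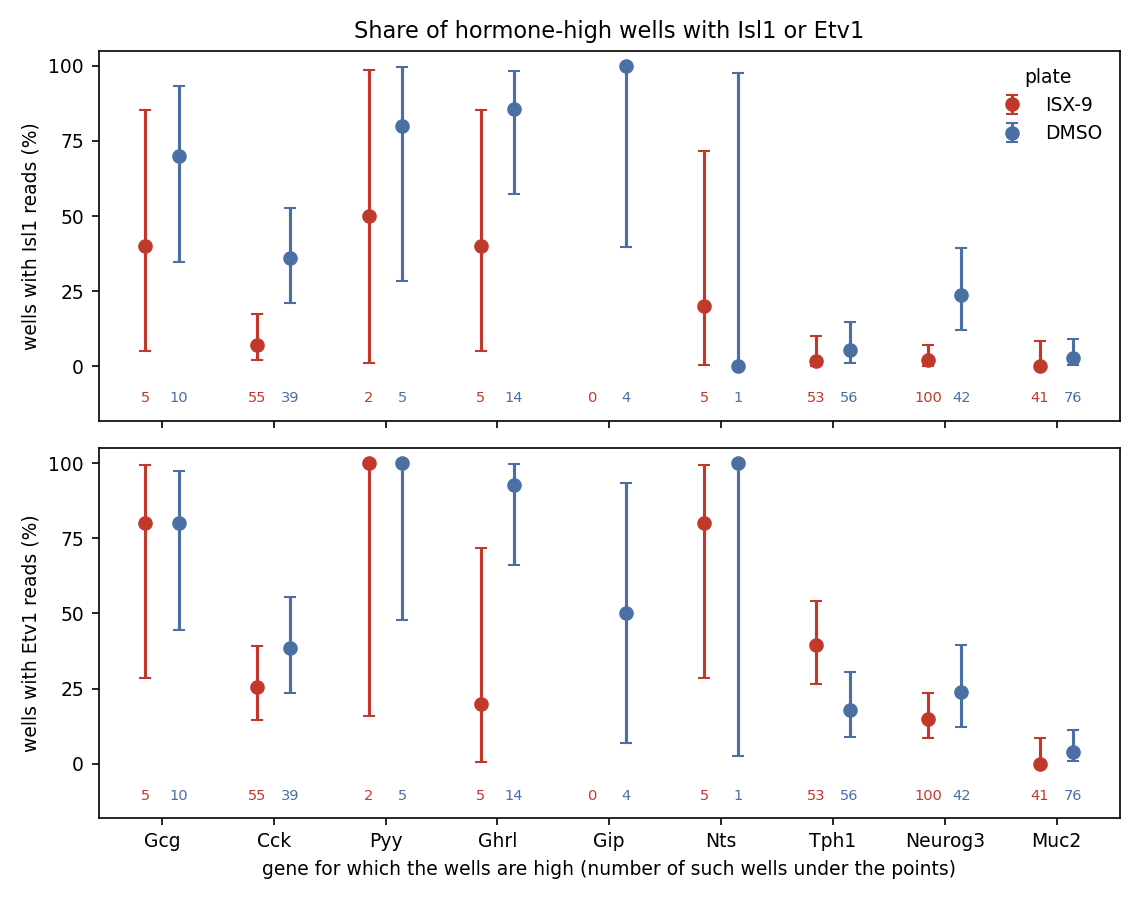
Share of wells with at least 1 read of Isl1 (upper panel) or Etv1 (lower panel), in percent with 95% Clopper-Pearson intervals, among wells high for each gene on the axis, with the number of wells under the points. Of Ghrl-high wells, 2 of 5 in ISX-9 and 12 of 14 in DMSO had Isl1, while 21 of 53 and 10 of 56 Tph1-high wells had Etv1.

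Across the plates, the hormone genes themselves stood as follows. Ghrl had 67.5 CPM in ISX-9 and 629.2 CPM in DMSO, Gcg 875.1 and 2212 CPM, Pyy 35.9 and 205.4 CPM, Cck 1483 and 2381 CPM, and Tph1 484.2 and 717.4 CPM. Their log2 ratios were -3.13, -1.33, -2.36, -0.68 and -0.56, so in these sums Isl1 at -3.42 lay nearest to Ghrl and Etv1 at -0.51 nearest to Tph1. As means over wells, Ghrl had 309.5 CPM in ISX-9 and 347.4 CPM in DMSO, Gcg 939.4 and 1611 CPM, and Pyy 41.4 and 258.2 CPM. A single DMSO well held 76.4% of the Pyy reads of its plate. Cck had 2168 and 2060 CPM and Tph1 707.6 and 986.3 CPM. With Isl1 at -3.04 and Etv1 at -0.16 there, this order depends on how wells are weighted. As a description over wells that share a plate, Pearson's r of log2(CPM + 10) between Isl1 and Ghrl was 0.24 over 290 ISX-9 wells and 0.47 over 300 DMSO wells, and between Isl1 and Tph1 it was 0.04 and -0.10. Etv1 had an r of 0.05 and 0.47 with Ghrl, 0.22 and 0.44 with Cck, and 0.36 and 0.00 with Tph1. Wells without a read weigh on these values, and depth enters through them.

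Isl1 and Etv1 shared wells mainly in DMSO. Both genes had a read in 4 ISX-9 wells and 19 DMSO wells, Isl1 alone in 3 and 23, and Etv1 alone in 48 and 31. The shared wells were 57.1% of the Isl1 wells and 7.69% of the Etv1 wells in ISX-9, and 45.2% and 38% in DMSO. The r between the 2 genes was 0.16 in ISX-9 and 0.44 in DMSO. The DMSO wells with both genes included wells led by Ghrl, Gcg, Cck and Pyy, whereas 0 of the wells with both were led by Tph1.

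**Figure D4:**
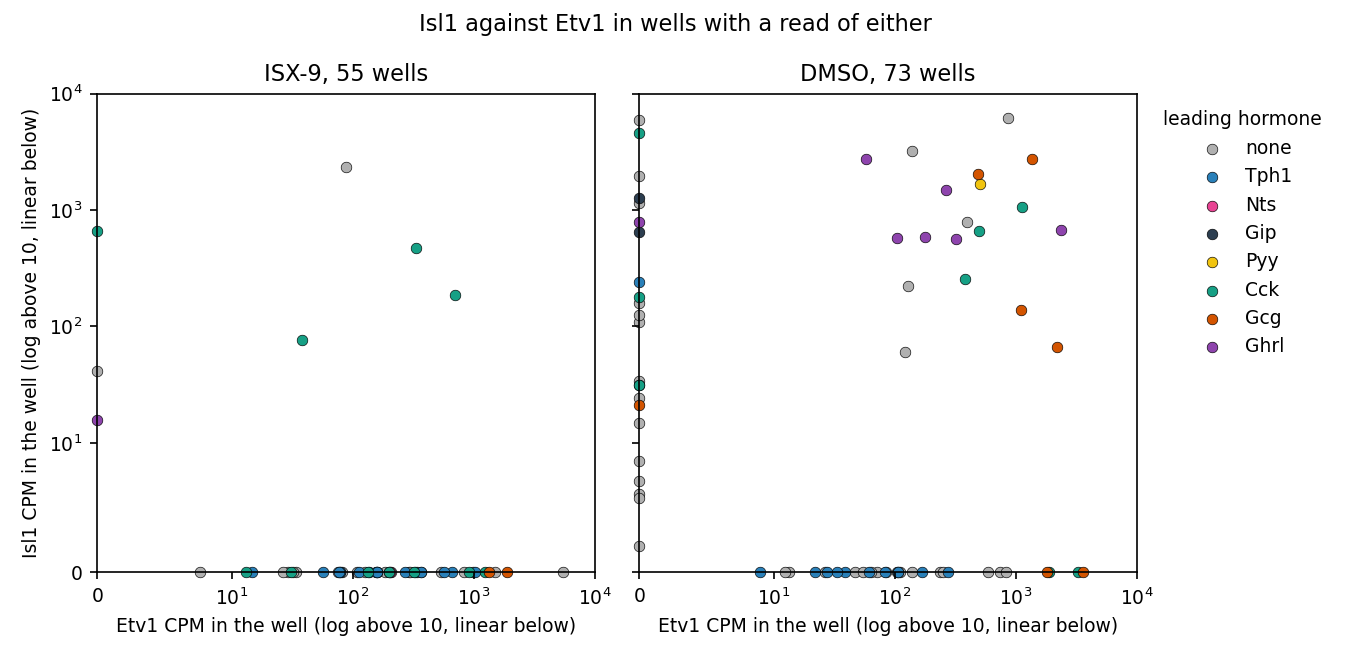
Isl1 against Etv1 in CPM per well (log scale above 10, linear below) for the 55 ISX-9 and 73 DMSO wells with a read of either gene, coloured by the leading hormone gene. Wells with both genes lie away from the axes, 4 in ISX-9 and 19 in DMSO, and points led by Tph1 lie on the Etv1 axis except 2 DMSO wells on the Isl1 axis.

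The genes whose level over wells was most like Isl1 were ranked on DMSO alone, since ISX-9 had only 7 wells with a read. The first 7 were Scgn (r 0.68), which encodes the calcium sensor secretagogin, Pax6 (0.61), a homeodomain factor of endocrine differentiation, Dlc1 (0.57), a GTPase-activating protein, Nr4a2 (0.53), an orphan nuclear receptor, Rbp4 (0.52), a retinol carrier, Emb (0.51), the cell surface protein embigin, and Cxxc4 (0.50), an inhibitor of Wnt signalling. In ISX-9 these r values ran from -0.00 for Nr4a2 to 0.31 for Pax6. Across the plates, 3 of the 7 were lower in ISX-9 by more than 2-fold, against 1.19% of the 9106 genes averaging at least 10 CPM. The ranking on DMSO wells favours genes with reads there, so this count is no independent result. Scgn had 39.99 CPM in ISX-9 and 185.8 CPM in DMSO, Rbp4 14.5 and 44.6 CPM, and Nr4a2 6.27 and 26.97 CPM. The others stayed within 2-fold, Cxxc4 with a log2 ratio of -0.87, Pax6 with -0.64, Dlc1 with 0.04 and Emb with 0.25. Under median-of-ratios and spike-in scaling Cxxc4 was past 2-fold, at -1.03 and -1.07, and Dlc1 was at -0.08 and -0.11. All 7 were higher in the peptide wells than in the Tph1 wells of DMSO. They were chosen by likeness to Isl1 over these same wells, so this order was largely set by the choice.

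Etv1 was most like Cpe (r 0.37 in ISX-9 and 0.38 in DMSO) and Pam (0.32 and 0.31), which encode enzymes that finish peptide hormones, Krt20 (0.36 and 0.42), a keratin of differentiated cells, and Fev (0.34 and 0.32), a transcription factor of serotonin cells and endocrine precursors. The others were Scg2 (0.32 and 0.64), a granin of secretory granules, Cacna2d1 (0.32 and 0.35), a calcium channel subunit, Ptprn2 (0.36 and 0.32), a protein of dense-core granules, and Cyp4b1 (0.31 and 0.38), a cytochrome P450. These 8 were ranked by the lower r of the 2 plates. Within the peptide wells alone, 2 of the first 8 genes of Isl1 and 1 of the 8 genes of Etv1 were again among the first 8.

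**Figure D5:**
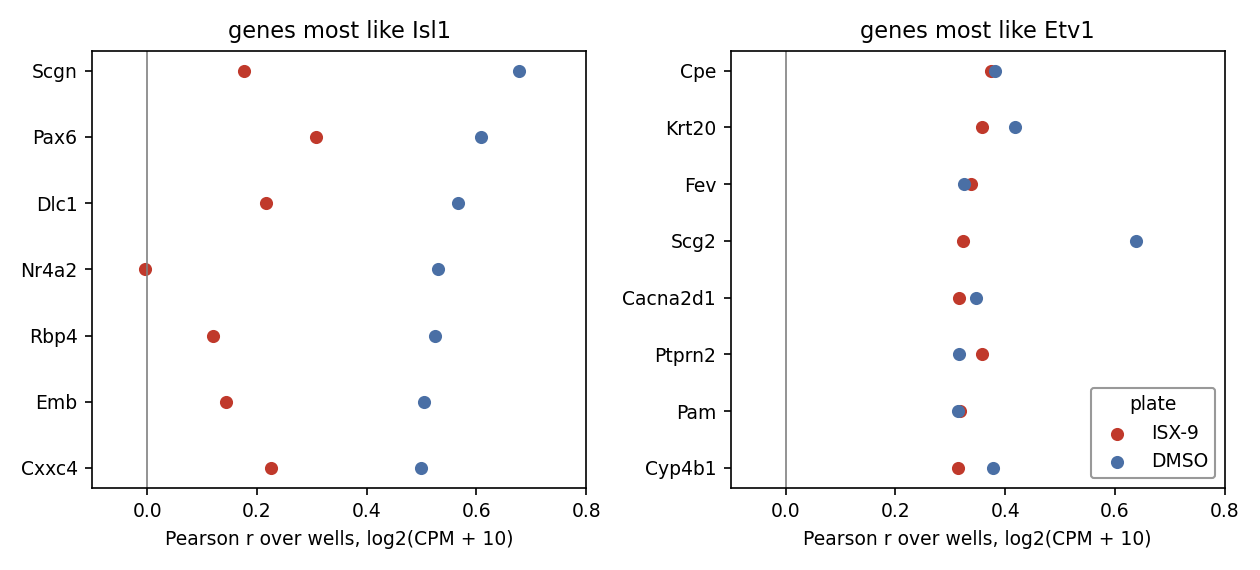
Pearson's r of log2(CPM + 10) over the kept wells of each plate (290 ISX-9, 300 DMSO) for the 7 genes most like Isl1, ranked on DMSO, and the 8 most like Etv1, ranked by the lower of both plates. Scgn, set against Isl1, is at 0.18 in ISX-9 and 0.68 in DMSO, and Cpe, set against Etv1, is at 0.37 and 0.38. The panels follow different ranking rules, so they are not compared with each other.

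Other endocrine transcription factors were measured in the wells that carried the 2 genes, a comparison chosen after the values were seen. In the 25 DMSO wells with 3 or more Isl1 reads, Pax6 had 354.6 CPM with a read in 18 wells, against 6.12 CPM in the DMSO wells with neither gene. Lmx1a, a LIM homeodomain factor of enterochromaffin cells, had 0.679 CPM in the DMSO Isl1 wells and 65.8 CPM in the DMSO wells with neither, while in ISX-9 it had 129.1 CPM in the Isl1 wells, 15 reads in 2 of 4 wells, and 24.6 CPM in the wells with neither. The 4 ISX-9 wells with 3 or more Isl1 reads all had Pax6, at 378.6 CPM. In the 39 ISX-9 wells with 3 or more Etv1 reads, Fev had 1506 CPM in 36 wells and Tph1 948.5 CPM in 35 wells, against 533.7 and 352.7 CPM in the ISX-9 wells with neither. The 32 such DMSO wells had Fev at 989.4 CPM and Tph1 at 1158 CPM, against 248.5 and 604.2 CPM in the DMSO wells with neither. In the DMSO Isl1 wells Fev had 1200 CPM and Tph1 31.2 CPM. The Etv1 wells were deeper, with a median of 44939 reads against 18123 reads in ISX-9 and 65376.5 against 23742 reads in DMSO. Depth enters the counts of wells with a read.

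Isl1 had the lowest ratio of the endocrine transcription factors. Of 25 measured at 10 CPM or more, 6 were at least 2-fold higher in ISX-9, and Isl1 was the only 1 at least 2-fold lower. This is 24% higher and 4% lower, against 4.51% and 1.19% of all genes; the median log2 ratio was 0.63, against 0.15 for all genes. The 6 were Neurog3 (2990 CPM in ISX-9 and 678.6 CPM in DMSO, log2 ratio 2.13), Pax4 (2.12), a factor of early endocrine precursors, Onecut3 (1.43), a cut homeodomain factor, Insm1 (1.40), a zinc finger factor of endocrine precursors, Runx1t1 (1.17), a corepressor, and Myt1 (1.05), a zinc finger factor. Higher within 2-fold were Rfx6 (0.87), Rfx3 (0.86), Neurod1 (0.79), Fev (0.75), Sox4 (0.72), Nkx2-2 (0.64), St18 (0.63), Prox1 (0.54), Tox3 (0.46), Foxa1 (0.23), Foxa3 (0.15), Mlxipl (0.10) and Onecut2 (0.03). Among those lower within 2-fold were Lmx1a (-0.77), Pax6 (-0.64), Etv1 (-0.51) and Foxa2 (-0.18). Median-of-ratios and spike-in scaling, applied to the lists after the values were seen, moved the median of all genes by -0.18 and -0.23 and that of the factors to 0.44 and 0.39. Both left 4 factors at least 2-fold higher, without Runx1t1 and Myt1, and gave 2 factors at least 2-fold lower under the first and 3 under the second, Isl1 among them in both and Lmx1a under spike-in scaling; of all genes, 3.33% were then higher and 1.79% lower under the first, and 3.10% and 1.98% under the second. Foxa3, Mlxipl and Onecut2 were then below 0 under both, and Foxa1 under spike-in scaling.

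Of the 15 ETS family genes at 10 CPM or more, 1 was at least 2-fold higher in ISX-9, Elk3 with 18.2 CPM in ISX-9 and 2.44 CPM in DMSO, and 0 were at least 2-fold lower. The family's 6.67% higher lies near the 4.51% of all genes, and with 15 genes this count says little about the family. Ets1 (0.68) and Elf4 (0.67) followed, and Etv1 had the lowest ratio of the 15; the median of the family was 0.05, and -0.12 and -0.16 under the other scalings. Among 13 genes of FGF receptors and ERK feedback, the pathway that acts on PEA3 factors, Fgfr1 (1.13) and Spred3 (1.05) were at least 2-fold higher, 15.4% against 4.51% of all genes, and 0 were lower, with Spry1 at 0.60, Fgfr4 at 0.48 and a median of 0.22; with the other scalings 0 of the 13 were past 2-fold and the median was 0.04 or -0.0099. Of 9 LIM homeobox genes and partners, Lmo1, a LIM-only protein, was at least 2-fold higher with 26.1 CPM in ISX-9 and 0.610 CPM in DMSO, and Isl1 was lower, 11.1% each way against 4.51% higher and 1.19% lower of all genes, while Ldb1, the LIM domain binding cofactor, had a ratio of 0.97 and Lmx1a -0.77, which was past 2-fold under spike-in scaling.

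Among 11 hormone and granule genes, Nts was at least 2-fold higher in ISX-9 and 4 were at least 2-fold lower, Gip, Ghrl, Pyy and Gcg. This is 9.09% higher and 36.4% lower, against 4.51% and 1.19% of all genes, with a median of -0.68. Both other scalings added Chga to the lower ones, and the median was -0.20 with thinned wells and -0.16 for the mean over wells. As means over wells, Ghrl (309.5 CPM in ISX-9, 347.4 CPM in DMSO) and Gcg (939.4 and 1611 CPM) stayed within 2-fold. Pyy (41.4 and 258.2 CPM) and Gip (0 and 204.6 CPM) did not. Both rest on few wells: 1 DMSO well, at 61355 CPM of Pyy, held 76.4% of the Pyy reads of that plate. For Gip, 3 DMSO wells held 86.7% of the reads. Gip had 0 reads in ISX-9, where the interval reached 0.313 CPM and 3 counts would be 0.254 CPM, and 103.7 CPM in DMSO. Of 16 other genes known from peptide hormone cells, Aplp1 (1.31) was at least 2-fold higher, Scgn (-2.08) and Rbp4 (-1.35) were lower, 6.25% and 12.5% of the list, and Resp18 was at -0.75; the median was -0.07, -0.25 and -0.30 under the other scalings, and 0.27 with wells thinned to 2000 reads.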

How the data were processed

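Single cells were sorted into 384-well plates, 1 plate per treatment, and their polyadenylated RNA was copied and amplified by the SORT-seq and CEL-Seq2 protocols, per the labels. The authors deposited raw counts of reads per gene and well. They are reads, not molecules: a molecular barcode of 4 bases, per the labels' protocols, allows only 256 tags. Alignment was with BWA and a build of the human genome, per the submitters' processing notes, which give BWA no version, whereas the gene rows carry mouse symbols; no source used here gives the counting rule. A gene listed in 1 table was set to 0 in the other.

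Reads of spike-ins and mitochondrial genes were left out of totals. Mitochondrial genes took 24.7% of all ISX-9 reads and 26.0% of all DMSO reads, and the ribosomal precursor Rn45s, which stayed in, 6.10% and 12.6% of nuclear reads. Of the 384 barcodes, 225 were kept in both plates, and 1 had an Isl1 read and 11 an Etv1 read in both. Doublets were not called; wells with most reads were left out as an alternative. A count of 0 is read against a floor of 3 counts. Thinning to 2000 reads left out 0 kept wells.

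The members, the 6 gene lists, the well sets and the thresholds were chosen with earlier results of these data known; leading hormones and the wells with 3 or more reads of a member, and the scalings of whole lists, were added after the values were seen. Named were Isl1, Etv1, 8 hormone genes, the 8 genes most like each member with a read in at least 10 wells of each plate, all endocrine transcription factors at 10 CPM or more, and up to 4 members of each other list by the size of the log2 ratio. Insm2, Egr3, Erg, Ldb2, Sst, Vip and Ffar1 were not analysed here, and 1 gene that the rule names is counted but not reported. Summing, ratios and likeness were tested on simulated data. Promoter windows of 5 of 5 genes came from RefSeq, build GRCm38.p6. Python 3.11.15, numpy 2.4.6, pandas 2.3.3, scipy 1.17.1 and matplotlib 3.10.9 were used.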

Additional observations from a re-analysis of the deposited data

How the results depend on the processing

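Isl1 stayed lower in ISX-9 than in DMSO under all 11 planned settings of its log2 ratio, from -3.93 with 1 CPM added to -2.49 with wells thinned to 2000 reads; it was -3.62 with spike-in scaling, -3.04 for the mean over wells, -2.92 without the 5% of wells with most reads, -3.76 without the highest well of each plate and -2.99 with 10 CPM added. Etv1 stayed negative and within 2-fold, at -0.70 with median-of-ratios scaling, -0.75 with spike-in scaling, -0.16 for the mean over wells and -0.37 without the deepest wells. Those scalings moved the median of all genes by -0.18 and -0.23. Thinned wells gave Isl1 shares of 0.690% in ISX-9 and 6.33% in DMSO and Etv1 shares of 5.52% and 8.67%. With 3 reads asked for, the DMSO share of Isl1 was 8.33% and the Etv1 shares were 13.4% in ISX-9 and 10.7% in DMSO. In peptide wells, the Isl1 ratio was -4.24 at 5000 CPM, -4.71 without the deepest wells and -4.63 thinned, and the Etv1 ratio was -0.71 at 5000 CPM and -2.08 thinned. In Tph1 wells the Etv1 ratio turned to -1.36 at 5000 CPM, and was 3.30 without the deepest wells and 0.30 thinned; the cause was not tested. In other wells, settings chosen after seeing the data gave an Etv1 ratio of 1.56 without the deepest wells, 1.27 at 5000 CPM and 0.91 thinned. Of the 8 genes most like Isl1, 5 were kept with log2(CPM + 100) and 2 in peptide wells alone, a setting chosen after seeing the data; for Etv1, 5 were kept with log2(CPM + 100), 5 with at least 5000 reads and 1000 genes per well, and 1 in peptide wells alone. The median of the peptide hormone cell genes turned to 0.27 when thinned. Under median-of-ratios and spike-in scaling, applied to lists after seeing the data, the ETS median turned to -0.12 and -0.16, and the FGF and ERK median to -0.0099 under the second. No paired analysis was possible because each treatment has 1 plate and no test was made; for the same reason no replicate could be left out. Depth limits zeros in shallow wells, above all in the ISX-9 secretory and Ghrl-high wells, and wells below the filters still held Isl1 at 63.1 CPM in ISX-9 and 62.6 CPM in DMSO.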
